A study of Mus musculus with 30 samples.

Results

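The genes of 10 integrin subunits were followed in haematopoietic stem cells (HSCs), the bone marrow cells that renew the blood, sorted from mice. They were chosen by symbol and are Itga2b, Itga4, Itga5, Itga6, Itga9, Itgal, Itgav, Itgb1, Itgb2 and Itgb3. All 10 of 10 were found among the 35727 genes of the table, and all 10 passed the filter on low values that left 16958 genes to test.

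The table held 30 RNA-seq libraries in 8 groups. Wild-type (WT) mice gave 4 libraries at 2 months of age, 5 at 1 year and 4 at 2 years. Mice labelled IL1R1 KO, for a knockout of the type 1 interleukin-1 receptor, gave 3, 4 and 5 libraries at the same ages. Mice labelled bowel germ-free gave 3 libraries at 2 months and 2 at 1 year. Each library came from 4000 to 5000 sorted cells, per the labels' protocols. Neither the knockout allele nor the strain nor the markers used for sorting is stated in these sources. The series text counts 30 mice, but no sample label ties a library to an animal, so p-values measure the spread between these libraries, part of which may be technical.

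Libraries held an estimated 15.6 to 56.3 M reads, with 20.0 to 29.5 M in the young WT group, whereas the 1-year WT group was the deepest, from 32.6 M up. Of 15 genes that mark HSCs, such as Kit, Procr, Hlf and Mecom, none was at 0 throughout any group, and their summed normalized count was 108640 to 152484 in every library. Mpo, a granule enzyme of granulocyte precursors, exceeded 10000 normalized counts in 9 of the 30 libraries, of which 6 were of 2 months. The gene count of Il1r1 itself did not fall where IL1R1 KO is the label: against WT it stood 0.40 ± 0.30, 0.28 ± 0.26 and 0.25 ± 0.26 higher on the log2 scale by age (SE, limma adjusted p = 0.714, 0.751 and 0.804). Gene counts also hold exons outside a deleted part, so this neither checks nor replaces the label, on which all directions for these mice rest. For 1 of them, replicate 1 of 1 year, the title gave 1 year and the age label 2 months. It was kept at 1 year, and results that depend on this are named.

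Integrins are receptors made of an alpha and a beta chain, and they hold cells to matrix proteins and to other cells. Itgb1 encodes the beta1 chain, which pairs with the alpha chains of Itga4, Itga5, Itga6, Itga9 and Itgav. Itgb3 encodes beta3, which pairs with the alphaIIb chain of Itga2b to form the fibrinogen receptor of platelets, or with the alphav chain of Itgav. Itgb2 encodes beta2 of the leukocyte integrins, and Itgal its partner in LFA-1. In the bone marrow, HSCs are held in their niche in part by alpha4beta1, which binds VCAM-1, and by alpha5beta1, which binds fibronectin. Protein of Itga2b, known as CD41, and of Itgb3, known as CD61, is a mark of megakaryocytes and platelets and is also found on part of the HSCs.

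Promoter windows of RefSeq (GRCm38.p6, 250 bases before to 50 after the start) were found for 6 of the 10 genes, namely Itga2b, Itga4, Itga5, Itga9, Itgav and Itgb1. The other 4 are Itga6, Itgal, Itgb2 and Itgb3. Those of Itga4, the gene with a fall in libraries labelled IL1R1 KO, and of Itga2b, the alpha partner of Itgb3, are shown to set side by side the starts of genes with different courses over age. Itga4 lies on the plus strand at chr2:79255176-79255475, and Itga2b on the minus strand at chr11:102469834-102470133. Both are written 5′ to 3′ along the gene, and capitals mark any match, on either strand, to GATAA (GATA factors), GGAAG (ETS factors) or TGTGGT (RUNX factors).
Itga4: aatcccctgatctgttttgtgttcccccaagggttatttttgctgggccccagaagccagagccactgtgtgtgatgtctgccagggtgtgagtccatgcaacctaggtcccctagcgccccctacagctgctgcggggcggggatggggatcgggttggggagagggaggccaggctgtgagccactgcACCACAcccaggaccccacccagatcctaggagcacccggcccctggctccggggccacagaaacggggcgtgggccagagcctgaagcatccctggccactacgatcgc
Itga2b: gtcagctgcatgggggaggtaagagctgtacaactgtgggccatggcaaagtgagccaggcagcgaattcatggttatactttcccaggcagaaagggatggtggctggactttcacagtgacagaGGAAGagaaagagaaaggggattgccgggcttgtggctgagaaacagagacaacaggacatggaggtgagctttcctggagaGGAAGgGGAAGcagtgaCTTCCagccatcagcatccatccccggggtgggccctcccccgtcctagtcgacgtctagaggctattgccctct
The window of Itga2b held 4 matches to GGAAG, the first bases of which lie at -124, -42, -36 and -25 from the RefSeq start. By GENCODE the gene reaches to 102470122, so most of this window lies inside the annotated gene. The window of Itga9 begins at 118711442, inside a gene that starts at 118606690. At least 1 match to GGAAG was found in 71.4% of all 32851 windows of this length, and at least 4 in 6.04%. The window of Itga4 held 1 match to TGTGGT, as its reverse, at -60, a motif found in 16.8% of windows. GATAA was found in neither the window of Itga4 nor that of Itga2b, and in 25.4% of all windows. None of the 3 motifs overlaps another, and a match is a description of these letters only.

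Levels were compared between genes per length, as normalized counts per kilobase of exon. Over the 30 libraries the order of medians was Itgb1 (1545), Itga2b (1220), Itgb3 (592), Itga5 (560), Itgb2 (422), Itga6 (354), Itga4 (206), Itgav (47.5), Itgal (36.2) and Itga9 (9.48). Some steps held in every library and others did not. Itga2b stood above Itgb3, and Itga4 above Itgav, in 30 of 30 libraries. Itgb3 stood above Itga5 in 18 of 30, Itgav above Itgal in 20, Itgb2 above Itga6 in 21, Itga5 above Itgb2 in 23 and Itgb1 above Itga2b in 24, so these neighbours overlapped. Itga6 exceeded Itga4, and Itgal exceeded Itga9, in 28 of 30. With coding length in place of exon length, Itga4 moved from rank 7 to 5, Itga6 from 6 to 4, Itga5 from 4 to 6 and Itgb2 from 5 to 7. The beta1 and alphaIIb chains were thus the most abundant transcripts per length of the 10, and the alpha chain of LFA-1 and the alpha9 chain the least.

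**Figure D1:**
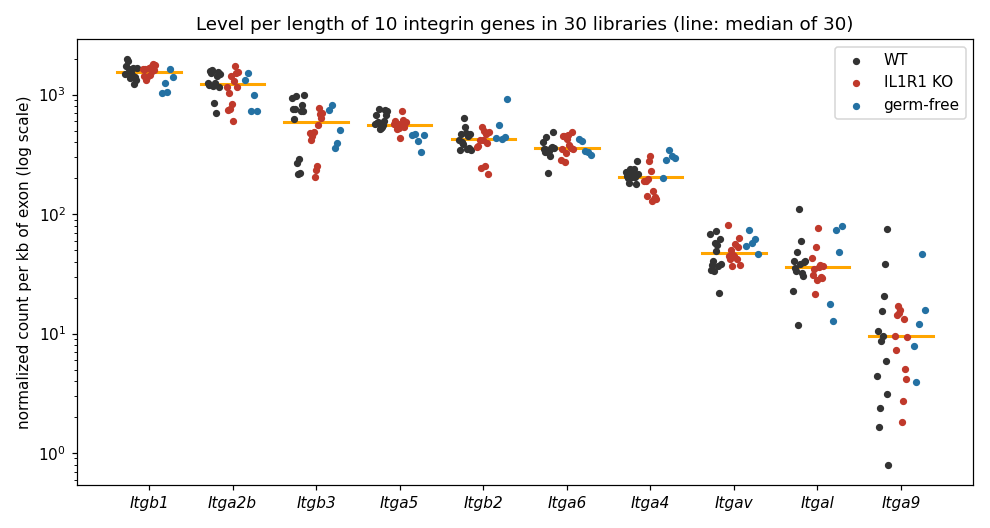
Level of each of the 10 integrin genes in normalized counts per kilobase of exon, on a log axis, with 1 point per library coloured by WT, IL1R1 KO or germ-free and a line at the median of 30 libraries. The medians run from 1545 for Itgb1 to 9.48 for Itga9, and Itgb3 shows a wide span, from 203 to 983.

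Changes were tested with limma across all 16958 genes, and a gene is said to have risen or fallen where its Benjamini-Hochberg adjusted p was below 0.05. With age in WT, 1 of 10 integrins rose at 1 year (Itgb3), where 10.7% of all genes passed, and 1 of 10 at 2 years (Itgb3), where 5.55% passed. Between 1 and 2 years of WT, limma called 0 of 10, against 0.0118% of all genes called. At an unadjusted p under 0.05 there was 1 of 10, beside 4.36% of all genes. In libraries labelled IL1R1 KO, 2 of 10 changed at 1 year (Itgb3 up, Itga4 down; 2% of all genes) and 3 of 10 at 2 years (Itgb3 and Itga2b up, Itga4 down; 8.02%). Between their 1 and 2 years limma called 0 of 10, against 0.177% of all genes called. At an unadjusted p under 0.05 there were 3 of 10, beside 7.37% of all genes. In germ-free libraries 2 of 10 changed by 1 year (Itgb3 up, Itgal down), against 2.1%. The median log2 change of the 10 was 0.08 and -0.06 in WT at 1 and 2 years, 0.08 and 0.20 in IL1R1 KO, and 0.016 in germ-free, beside 0.014, 0.007, 0.002, 0.003 and 0.007 over all genes.

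Against WT of the same age, limma called 0 of 10 in libraries labelled IL1R1 KO at 2 months, where 0.407% of all genes were called. At an unadjusted p under 0.05 there was 1 of 10, beside 9.57% of all genes. At 1 year 1 of 10 was lower (Itgb3; 1.3% of all genes), and at 2 years 1 of 10 (Itga4; 1.42%). Germ-free libraries had 1 of 10 higher at 2 months (Itgb3; 0.601%) and 2 of 10 lower at 1 year (Itga5 and Itgb1; 4.96%). The median log2 difference of the 10 was -0.053, -0.19 and -0.035 for IL1R1 KO by age and 0.15 and 0.087 for germ-free, with medians over all genes of 0, -0.013, -0.008, 0.001 and -0.001. The age changes themselves were also compared with those of WT. For the change from 2 months to 1 year limma called 0 of 10 in IL1R1 KO, where 0.0354% of all genes were called. At an unadjusted p under 0.05 there were 4 of 10, beside 10.1% of all genes. In germ-free limma called 0 of 10, where 0% of all genes were called. At an unadjusted p under 0.05 there were 3 of 10, beside 1794 of all genes, which is 10.6%. For the change from 2 months to 2 years 1 of 10 was called in IL1R1 KO, Itga4, against 0.395% of all genes. Comparisons that share a group share its libraries.

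**Figure D2:**
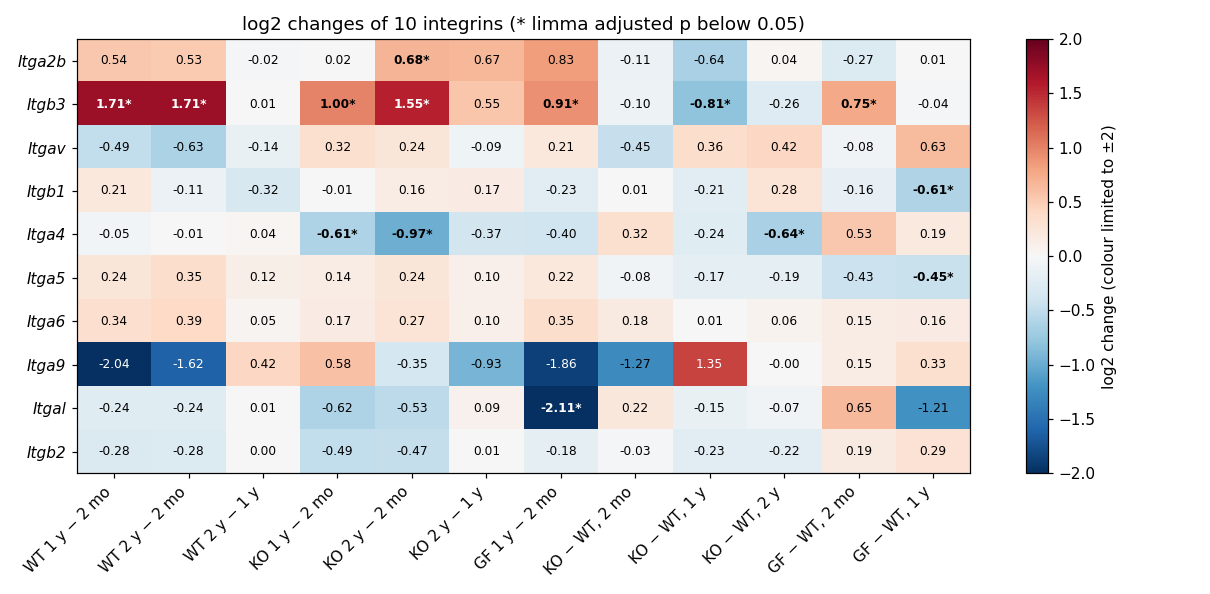
Log2 change of each of the 10 integrins (rows) in 12 comparisons (columns), on the log2(normalized count + 1) scale, with colour limited to 2 either way and an asterisk where the limma adjusted p is below 0.05. Itgb3 carries the most asterisks (1.71 in WT at both ages), Itga4 carries them in comparisons of libraries labelled IL1R1 KO, and Itga6, Itga9, Itgav and Itgb2 carry none.

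Itgb3, the beta3 chain (ENSMUSG00000020689, chromosome 11, 104608000 to 104670476, GRCm38), was the integrin that rose with age in all 3 kinds of mice. In WT its normalized counts were 1566, 1273, 1696 and 1306 at 2 months, 5531, 4483, 3692, 4482 and 5764 at 1 year, and 4279, 4805, 4272 and 5801 at 2 years. Every aged WT library lay above every young one, and the 1-year and 2-year libraries overlapped. The log2 change on the log2(normalized count + 1) scale was 1.71 ± 0.13 at 1 year (SE, limma adjusted p = 2.31e-10), a 3.26-fold rise, and 1.71 ± 0.14 at 2 years (adjusted p = 6.29e-10). From 1 to 2 years it was 0.0068, with a 95% interval of -0.26 to 0.27.

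In libraries labelled IL1R1 KO, Itgb3 stood at 1198, 1379 and 1492 normalized counts at 2 months, 2821, 2447, 2657 and 2881 at 1 year, and 3300, 4589, 4086, 3771 and 4174 at 2 years. The 3 ages did not overlap and were in order. Of all tested genes, 11.4% had no overlap between 2 months and 1 year. Between 2 months and 2 years the share was 16.3%, and between 1 and 2 years 3.8%. Itgb3 rose by 1.00 ± 0.15 on the log2 scale at 1 year (SE, limma adjusted p = 2.2e-04) and by 1.55 ± 0.14 at 2 years (adjusted p = 9.16e-09). The step from 1 to 2 years was 0.55 ± 0.13 (SE, adjusted p = 0.0813). At 1 year all 4 of these libraries lay below all 5 of WT, a difference of -0.81 ± 0.13 (SE, adjusted p = 5.39e-04). Groups did not overlap for 6.24% of all tested genes there. In the same comparison 4 of 12 erythroid markers were higher (median of the 12 2.25), where 1.3% of all genes were called. Their summed normalized counts were 64758 to 78056 against 50764 to 67026 in WT, with none of the 12 at 0 throughout either group. The part of these markers in the difference was not tested. At 2 months the difference was -0.10 ± 0.15 (adjusted p = 0.873) and at 2 years -0.26 ± 0.13 (adjusted p = 0.440), and both pairs of groups overlapped. The difference between the 1-year age changes of IL1R1 KO and WT was -0.71 ± 0.20 (SE, adjusted p = 0.194), so that a smaller rise was not shown by that test. With replicate 1 of 1 year placed at 2 months, by its age label, the 1-year change became 0.71 (adjusted p = 0.112).

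Germ-free libraries held 2120, 2322 and 2964 normalized counts of Itgb3 at 2 months and 4349 and 4843 at 1 year. The young libraries all lay above the 4 young WT libraries, and the 1-year libraries lay within the range of WT at 1 year. Between young germ-free and young WT libraries, 7.63% of all tested genes had groups without overlap. The difference from WT was 0.75 ± 0.15 at 2 months (SE, limma adjusted p = 0.0075) and -0.043 ± 0.16 at 1 year (adjusted p = 0.913). Itgb3 rose by 0.91 ± 0.18 within the germ-free groups (SE, adjusted p = 0.0033), and this change differed from that of WT by -0.80 ± 0.22 (SE, adjusted p = 0.217). Without the 9 libraries of high Mpo, which include 2 of the 3 young germ-free ones, the young difference from WT was 0.51, and its adjusted p of 0.352 rests on the spread within the other groups, since 1 young germ-free library was left. Without germ-free 2 months replicate 3 it was 0.61 (adjusted p = 0.0965), and without germ-free 1 year replicate 2 the rise was 0.83 (adjusted p = 0.051). Placing IL1R1 KO 1 year replicate 1 at 2 months also lost the call of the young difference.

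Itga2b, the alphaIIb chain that pairs with beta3 (ENSMUSG00000034664, chromosome 11, 102453297 to 102470122), varied more within groups. In WT it was 6399, 4644, 6857 and 3846 normalized counts at 2 months, 6786, 6517, 8629, 8219 and 8732 at 1 year, and 7792, 8449, 6278 and 8133 at 2 years. Most aged WT libraries lay above the young ones, with overlap, and the log2 change was 0.54 ± 0.19 at 1 year (SE, limma adjusted p = 0.0726) and 0.53 ± 0.21 at 2 years (adjusted p = 0.149). Libraries labelled IL1R1 KO held 7802, 4523 and 3306 at 2 months, 6348, 4052, 5639 and 4104 at 1 year, and 7090, 9440, 8337, 6308 and 8444 at 2 years. Here the 1-year libraries lay among the young ones, with a change of 0.016 ± 0.22 (SE, adjusted p = 0.991). The gene rose at 2 years by 0.68 ± 0.21 (SE, adjusted p = 0.0435), although the groups overlapped, and the call was kept in 7 of 18 alternatives. It was lost without IL1R1 KO 2 months replicate 3 (0.40, adjusted p = 0.327) or replicate 2 (0.63, adjusted p = 0.136), and without replicate 1, 2, 3 or 5 of 2 years (0.62 to 0.72, adjusted p = 0.0537 to 0.0978). Placing replicate 1 of 1 year at 2 months, by its age label, lost the call as well.

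At 1 year every library labelled IL1R1 KO lay below every WT library for Itga2b, by -0.64 ± 0.19 (SE, limma adjusted p = 0.11). Germ-free libraries went from 3958, 5371 and 3948 normalized counts at 2 months to 7293 and 8332 at 1 year, with no overlap and a change of 0.83 ± 0.26 (SE, adjusted p = 0.0978). In these 2 comparisons 6.24% and 26.5% of all tested genes had groups without overlap.

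The ratio of Itgb3 to Itga2b, both per kilobase of exon, followed from these courses. Young WT libraries had a ratio of 0.255 ± 0.0408 (SD, n = 4), those of 1 year 0.580 ± 0.136 (SD, n = 5) and those of 2 years 0.580 ± 0.0750 (SD, n = 4). Libraries labelled IL1R1 KO had 0.280 ± 0.138 when young (SD, n = 3), 0.513 ± 0.111 at 1 year (SD, n = 4) and 0.468 ± 0.0481 at 2 years (SD, n = 5). Germ-free libraries had 0.530 ± 0.150 at 2 months (SD, n = 3) and 0.544 ± 0.0098 at 1 year (SD, n = 2). Young WT libraries spanned 0.226 to 0.314 and young germ-free libraries 0.400 to 0.694, without overlap. The transcript of beta3 thus stood below that of its alpha partner in all groups, and nearer to it in the aged and the germ-free groups.

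Markers of other cells are given beside this pair. Of 15 genes of megakaryocytes and platelets, 4 rose at 1 year and 3 at 2 years in WT (medians 0.29 and 0.25). In IL1R1 KO 2 rose at 1 year (median 0.03), and 2 rose and 1 fell at 2 years (median 0.035). In germ-free libraries 4 rose (median 0.68). Over all genes 10.7% and 5.55% were called in WT, 2% and 8.02% in IL1R1 KO and 2.1% in germ-free. The summed normalized count of 15 such genes was 44382 to 47558 in WT at 2 months, 66088 to 79137 at 1 year and 61823 to 74915 at 2 years. By age the sum ran over 43538 to 49592, then 55382 to 66470, then 62990 to 72071 in libraries labelled IL1R1 KO, and over 36540 to 41377 and 50694 to 51967 in germ-free libraries. None of the 15 was at 0 throughout a group. The young germ-free libraries had the lowest sums. In IL1R1 KO the sums at 1 year lay above those at 2 months. A sum follows its most abundant genes, and the mean log2 value of the 15 was 8.915 at 2 months and 8.929 at 1 year there. At 1 year in WT, where 10.7% of all genes passed, 8 of the 15 HSC genes were also higher than at 2 months. Of 13 neutrophil and granule markers 4 were lower and 1 higher, and of 12 erythroid markers 4 were lower and 1 higher. The part of such cells in the changes of Itgb3 was not tested, and in bulk libraries fewer cells of a type and less RNA per cell cannot be told apart.

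**Figure D3:**
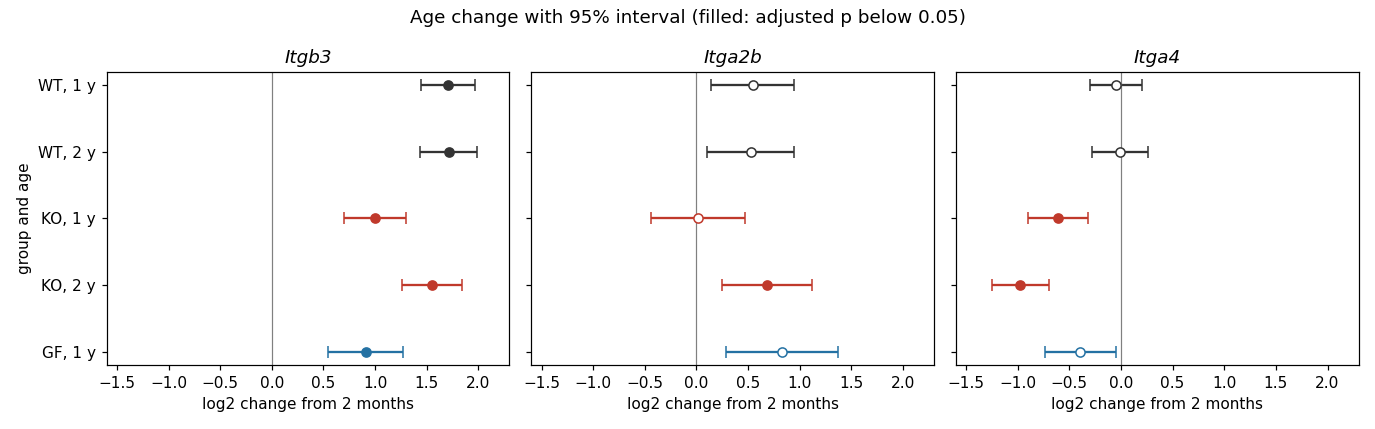
Log2 change from 2 months with its 95% interval for Itgb3, Itga2b and Itga4 in WT, IL1R1 KO and germ-free libraries, filled where the limma adjusted p is below 0.05. Itgb3 lies right of 0 in all 5 comparisons (0.91 to 1.71), and Itga4 lies near 0 in WT and at -0.61 and -0.97 in libraries labelled IL1R1 KO.

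Itgav, the alphav chain and the other partner of beta3 (chromosome 2, 83724397 to 83806916), did not pass the test in any of the 15 comparisons. Its normalized counts were 613, 769, 523 and 597 in WT at 2 months, 725, 364, 402, 438 and 359 at 1 year, and 395, 233, 667 and 411 at 2 years, so the ages overlapped. The log2 change in WT was -0.49 ± 0.24 at 1 year (SE, limma adjusted p = 0.223) and -0.63 ± 0.26 at 2 years (adjusted p = 0.168). In libraries labelled IL1R1 KO the values were 399 to 484 at 2 months, 452 to 870 at 1 year and 406 to 676 at 2 years. Those of 2 months all lay below young WT (-0.45 ± 0.28, SE, adjusted p = 0.635), among 7.06% of all tested genes without overlap there. Germ-free libraries held 498 to 666 at 2 months and 583 to 795 at 1 year. Age changes of IL1R1 KO and WT differed by 0.81 ± 0.37 at 1 year (SE, adjusted p = 0.445) and 0.87 ± 0.37 at 2 years (adjusted p = 0.419). Per kilobase of exon, Itgb3 was 4.39 ± 1.21 times Itgav in young WT libraries (SD, n = 4) and 20.2 ± 5.94 times in those of 1 year (SD, n = 5), with ranges of 3.01 to 5.90 and 13.9 to 29.2.

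Itgb1, the beta1 chain (ENSMUSG00000025809, chromosome 8, 128685654 to 128733200), had a coefficient of variation of 5.96% to 20.9% within groups. The highest was in germ-free libraries of 2 months. WT libraries held 5629, 6192, 5912 and 6846 normalized counts at 2 months, 6032, 7141, 8079, 7742 and 6657 at 1 year, and 4970, 5774, 5361 and 6762 at 2 years. All 3 ages overlapped, with log2 changes of 0.21 ± 0.11 (SE, limma adjusted p = 0.254) and -0.11 ± 0.12 (adjusted p = 0.694) from 2 months. The step from 1 to 2 years was -0.32 ± 0.11, the 1 integrin at an unadjusted p under 0.05 there, with an adjusted p of 1. Libraries labelled IL1R1 KO lay at 5765 to 6823, 5364 to 6744 and 6417 to 7407 by age, and none of their comparisons passed.

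Germ-free libraries held 4331, 6635 and 5695 normalized counts of Itgb1 at 2 months and 4248 and 5113 at 1 year. Both 1-year libraries lay below all 5 of WT, and the difference was -0.61 ± 0.14 (SE, limma adjusted p = 0.0109). The call was lost without germ-free 1 year replicate 1 (-0.47, adjusted p = 0.221), when the remaining library is assumed to vary like the other groups. Other lists differed in the same comparison, and their part in the differences of Itgb1 and Itga5 was not tested. Of 12 erythroid markers 5 were higher (median 3.12), with summed normalized counts of 62716 to 72120 against 50764 to 67026. Of 15 HSC genes 4 were lower (median -0.069). Over all genes 4.96% were called. Of 13 neutrophil and granule markers limma called 0 (median 2.43), with 4 at an unadjusted p under 0.05, beside 20.1% of all genes. Within the germ-free groups the age change was -0.23 ± 0.15 (SE, adjusted p = 0.511). In germ-free against WT at 1 year, 26.3% of all tested genes had groups without overlap.

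Itga4, the alpha4 chain that binds VCAM-1 when paired with beta1 (ENSMUSG00000027009, chromosome 2, 79255426 to 79333123), fell with age in libraries labelled IL1R1 KO. Their normalized counts were 3921, 4316 and 3227 at 2 months, 2660, 2634, 1983 and 2751 at 1 year, and 1794, 2187, 1883, 1934 and 1875 at 2 years. Young libraries lay above all aged ones, and the 2 aged groups overlapped through 1 library of 1 year. Against 2 months, 11.4% of all tested genes had groups without overlap at 1 year and 16.3% at 2 years. Itga4 changed by -0.61 ± 0.14 on the log2 scale at 1 year (SE, limma adjusted p = 0.0195) and -0.97 ± 0.13 at 2 years (adjusted p = 1.61e-05), which is 0.509 times the young level. In WT the counts were 2915, 2851, 3057 and 3348 at 2 months, 3138, 2929, 2776, 2553 and 3318 at 1 year, and 2835, 2487, 3908 and 3000 at 2 years. These overlapped at all ages, with changes of -0.051 ± 0.12 and -0.010 ± 0.13 (SE, adjusted p = 0.858 and 0.987) and 95% intervals of -0.30 to 0.20 and -0.28 to 0.26.

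At 2 years all 5 libraries labelled IL1R1 KO lay below all 4 of WT for Itga4, by -0.64 ± 0.12 (SE, limma adjusted p = 0.0047), and this call was kept in 19 of 19 alternatives. In that comparison 5.78% of all tested genes had groups without overlap. There 2 of 15 HSC genes were lower as well, where 1.42% of all genes were called. Of 12 erythroid markers limma called 0 (median 1.24), with 6 at an unadjusted p under 0.05, beside 11.5% of all genes. The part of these lists was not tested. At 2 months the IL1R1 KO libraries averaged 0.32 ± 0.14 more (SE, adjusted p = 0.458) and at 1 year -0.24 ± 0.12 (adjusted p = 0.460), with overlap at both ages. The change from 2 months to 2 years differed between IL1R1 KO and WT by -0.96 ± 0.19 (SE, adjusted p = 0.0221), and that to 1 year by -0.56 ± 0.19 (adjusted p = 0.272). The fall to 2 years passed in 18 of 18 alternatives (-1.16 to -0.85), and that to 1 year in 10 of 17 (-0.82 to -0.50). The difference of the 2-year changes was lost without IL1R1 KO 2 months replicate 1 (-0.94, adjusted p = 0.0552) or replicate 2 (-0.87, adjusted p = 0.0571), with 1 library placed at 2 months by its age label (-0.84, adjusted p = 0.187), and without the libraries of high Mpo (-1.22, adjusted p = 0.0691), which leaves 1 young IL1R1 KO library, assumed to vary like the other groups. The fall to 1 year was lost without the same 2 young libraries (-0.59 and -0.52, adjusted p = 0.100 and 0.0951) or IL1R1 KO 1 year replicate 3 (-0.50, adjusted p = 0.0786), and with that placement (-0.51, adjusted p = 0.148).

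Germ-free libraries held 4791, 4319 and 4089 normalized counts of Itga4 at 2 months and 2804 and 3973 at 1 year. All 3 young ones lay above all young WT libraries, by 0.53 ± 0.14 (SE, limma adjusted p = 0.0844), among 7.63% of all tested genes without overlap there. The age change was -0.40 ± 0.17 (SE, adjusted p = 0.245). An exon of Itga4 overlaps one of Cerkl on the opposite strand, and reads of the 2 genes cannot be told apart without strand. Cerkl stood at 189 ± 82.9 normalized counts (SD, n = 3) in young and 322 ± 27.6 (SD, n = 5) in 2-year libraries labelled IL1R1 KO, against 234 ± 52.0 (SD, n = 4) and 290 ± 74.5 (SD, n = 4) in WT. At 1 year Cerkl stood at 347 ± 136 in IL1R1 KO (SD, n = 4) and 314 ± 128 in WT (SD, n = 5). Germ-free libraries held 280 ± 66.4 at 2 months (SD, n = 3) and 651 ± 47.1 at 1 year (SD, n = 2). The part of Cerkl in the counts of Itga4 was not tested.

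Per kilobase of exon, Itga4 was 0.180 ± 0.0211 of Itgb1 in IL1R1 KO at 2 months (SD, n = 3), 0.121 ± 0.0270 at 1 year (SD, n = 4) and 0.0823 ± 0.0107 at 2 years (SD, n = 5). The WT ratio was 0.145 ± 0.0080 when young (SD, n = 4), then 0.123 ± 0.0254 at 1 year (SD, n = 5) and 0.159 ± 0.0405 at 2 years (SD, n = 4), and in germ-free 0.241 ± 0.0718 (SD, n = 3) and 0.210 ± 0.0242 (SD, n = 2). The 2-year IL1R1 KO libraries spanned 0.0742 to 0.0995 and those of WT 0.126 to 0.213. The alpha4 transcript thus fell relative to beta1 as well, since Itgb1 did not fall there. The level of these ratios depends on the length used. In IL1R1 KO at 2 months Itga4 averaged 273 and Itgb1 1518 per kilobase of exon. Per kilobase of coding length they averaged 1234 and 2513.

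Itga5, the alpha5 chain of the fibronectin receptor (ENSMUSG00000000555, chromosome 15, 103344286 to 103366763), was lower in germ-free than in WT libraries at 1 year. WT libraries held 2553, 2590, 2655 and 2749 normalized counts at 2 months, 2812, 3334, 2871, 2881 and 3749 at 1 year, and 2977, 3678, 3300 and 3565 at 2 years. Aged WT libraries all lay above the young ones, with log2 changes of 0.24 ± 0.11 (SE, limma adjusted p = 0.163) and 0.35 ± 0.11 (adjusted p = 0.0596), which did not pass. At 1 year, 6.89% of all tested genes likewise had every WT library above the young ones, and at 2 years 5.31%. Germ-free libraries held 2015, 1647 and 2260 at 2 months and 2259 and 2292 at 1 year, below all WT libraries of the same age. By age, 7.63% and 26.3% of all tested genes had groups without overlap there. The difference was -0.43 ± 0.12 at 2 months (SE, adjusted p = 0.121) and -0.45 ± 0.13 at 1 year (adjusted p = 0.0442), and the latter call was kept in 6 of 17 alternatives. It was lost without either germ-free 1-year library (-0.44 and -0.46, adjusted p = 0.247 and 0.130) and without WT 1 year replicate 2, 3, 4 or 5 (-0.48 to -0.38, adjusted p = 0.0542 to 0.0980). Libraries labelled IL1R1 KO lay at 2143 to 2801, 2560 to 2988 and 2664 to 3579 by age, and none of their comparisons passed.

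Itga6, the alpha6 chain of laminin receptors (chromosome 2, 71745616 to 71858416), passed in none of the 15 comparisons. WT libraries held 3013, 1980, 3036 and 2762 normalized counts at 2 months, 3618, 3149, 3193, 3014 and 3987 at 1 year and 3221, 3303, 4372 and 3203 at 2 years. The 2-year libraries all lay above the young ones, by 0.39 ± 0.16 on the log2 scale (SE, limma adjusted p = 0.161), among 9.13% of all genes without overlap there. At 1 year the change was 0.34 ± 0.15 (SE, adjusted p = 0.154). Libraries labelled IL1R1 KO ranged over 2450 to 3861, 2583 to 4086 and 3193 to 4429 by age, and germ-free ones over 2800 to 3072 and 3709 to 3834. The germ-free ages did not overlap, among 26.5% of all tested genes without overlap there, with a change of 0.35 ± 0.20 (SE, adjusted p = 0.432).

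Itga9, the alpha9 chain that binds tenascin-C and Svep1 (chromosome 9, 118606690 to 118901003), was the lowest and most variable member, and it passed in no comparison. WT libraries held 119, 74.0, 158 and 296 normalized counts at 2 months, 34.1, 81.0, 12.8, 18.2 and 66.7 at 1 year and 45.4, 23.9, 577 and 6.09 at 2 years. The log2 change was -2.04 ± 0.84 at 1 year (SE, limma adjusted p = 0.129) and -1.62 ± 0.89 at 2 years (adjusted p = 0.349). The coefficient of variation within a group was 36.9% to 169% for Itga9, and 5.96% to 20.9% for Itgb1. The other 5 groups lay between 14 and 356 normalized counts, and all overlapped with WT of the same age. The germ-free ages did not overlap, among 26.5% of all tested genes without overlap there. Their change was -1.86 ± 1.14 on the log2 scale (SE, limma adjusted p = 0.475).

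Of the leukocyte integrins, Itgb2, the beta2 chain (chromosome 10, 77530252 to 77565708), passed in no comparison. Its normalized counts were 1942, 1640, 1447 and 1070 in WT at 2 months, 1267, 1058, 1421, 1227 and 1182 at 1 year and 1372, 1094, 1432 and 1056 at 2 years. The log2 change was -0.28 in WT at both ages, and -0.49 ± 0.26 and -0.47 ± 0.25 in IL1R1 KO (SE, limma adjusted p = 0.416 and 0.298). The highest value of the series, 2809, was in germ-free 2 months replicate 3, whose summed neutrophil and granule markers were also the highest, at 156563. The other 2 young germ-free libraries held 1296 and 1335, with sums of 100325 and 6066.

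Itgal, the alpha chain of LFA-1 (ENSMUSG00000030830, chromosome 7, 127296260 to 127335138), fell with age in germ-free libraries. They held 481, 314 and 523 normalized counts at 2 months and 116 and 84.3 at 1 year, among 26.5% of all tested genes without overlap there. The difference on the log2 scale was -2.11 ± 0.53 (SE, limma adjusted p = 0.0301). The call was kept in 7 of 15 alternatives, and it was lost without germ-free 1 year replicate 1 or 2 (-2.33 and -1.88, adjusted p = 0.0990 and 0.168) and without germ-free 2 months replicate 1 or 3 (-2.02 and -1.97, adjusted p = 0.0741 and 0.0951). WT libraries held 77.0, 729, 249 and 394 at 2 months, 150, 264, 234, 220 and 316 at 1 year and 211, 198, 260 and 264 at 2 years, which overlapped. At 1 year both germ-free libraries lay below all 5 of WT, by -1.21 ± 0.48 (SE, adjusted p = 0.144), among 26.3% of all tested genes without overlap there. The germ-free change differed from that of WT by -1.86 ± 0.65 (SE, adjusted p = 0.303). The neutrophil and granule sum was 6066 to 156563 in young and 13767 to 17012 in 1-year germ-free libraries, and its part in the fall was not tested. Without the libraries of high Mpo the change was -1.66, but 1 young germ-free library was then left, so the adjusted p of 0.11 rests on the spread within the other groups. In IL1R1 KO the counts were 186 to 501, 141 to 281 and 192 to 245 by age, and no comparison passed.

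**Figure D4:**
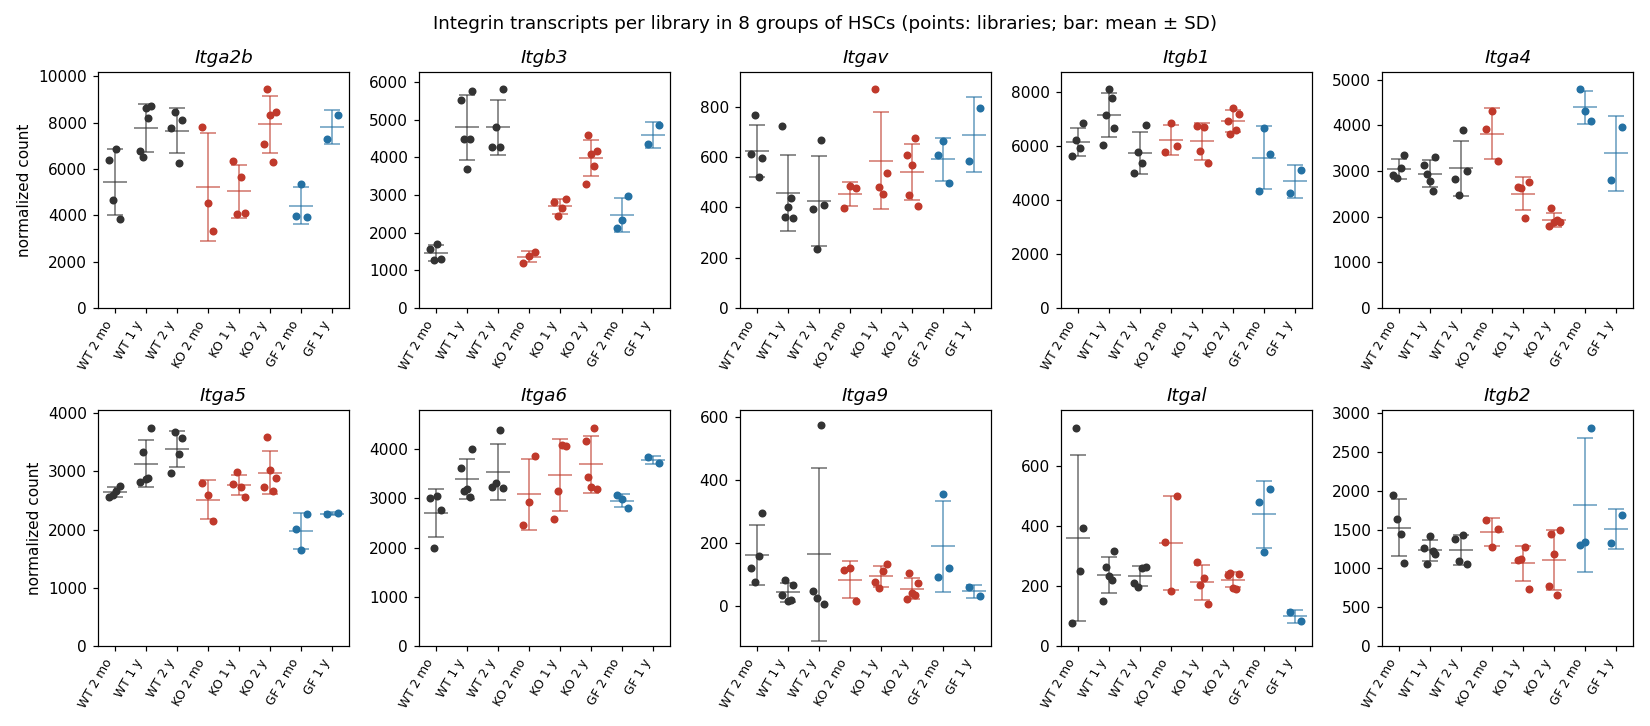
Normalized counts of the 10 integrins in each of the 30 libraries, 1 panel per gene with its own axis, points for libraries and bars for the mean ± SD of WT (black), IL1R1 KO (red) and germ-free (blue) groups by age. Itgb3 shows aged groups above young ones, Itga4 a downward course in IL1R1 KO from 3227 to 4316 to 1794 to 2187, and Itga9 a single high library at 577 whose group bar reaches below 0.

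Other integrin subunits were taken as a list. Of 16 further alpha and beta chains, 13 could be tested, and at 1 year in WT 1 rose and 2 fell, where 10.7% of all genes passed. Itga3, an alpha chain of laminin receptors, went from 167 ± 65.6 normalized counts (SD, n = 4) to 375 ± 65.7 (SD, n = 5), and rose by 1.24 ± 0.36 on the log2 scale (SE, limma adjusted p = 0.0242). Itgam, the alpha chain of Mac-1 on myeloid cells, fell by 1.71 ± 0.53 on the log2 scale (SE, adjusted p = 0.0359), from 333 ± 121 to 108 ± 55.9 (SD, n = 4 and 5). Itga1, of a collagen receptor, fell by 4.03 ± 1.02 (SE, adjusted p = 0.0093), from 252 ± 223 to 16.1 ± 18.5 (SD, n = 4 and 5). The neutrophil and granule sum was 15121 to 120790 in those young libraries and 14175 to 17730 in the 1-year ones, and its part in these falls was not tested. In every other comparison limma called 0 of the 13, with 0 to 3 at an unadjusted p under 0.05. Over all genes 4.36% to 20.8% had such a p in those comparisons. The median over the 13 was -0.65 at 1 year in WT, beside 0.014 over all genes.

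Among 42 genes that activate integrins or link them to the cytoskeleton, 40 were tested. At 1 year in WT 5 rose and 2 fell (median 0.047; 10.7% of all genes passed), and at 2 years 4 rose and 2 fell (median -0.058; 5.55% of all genes). Skap1, an adaptor that helps activate integrins in lymphocytes, rose from 69.7 ± 18 normalized counts (SD, n = 4) to 298 ± 32.4 (SD, n = 5), by 2.1 ± 0.23 at 1 year (SE, limma adjusted p = 1.72e-07) and by 1.93 ± 0.24 at 2 years (adjusted p = 2.60e-06). Fyb, an adaptor that binds Skap1, rose by 0.82 ± 0.15 and 1.09 ± 0.16 (SE). Cytip, which binds a regulator of LFA-1, rose by 0.53 ± 0.10 and 0.42 ± 0.11 (SE), and the kinase Ptk2b by 0.49 ± 0.10 and 0.38 ± 0.10 (SE). Cd9, a tetraspanin that associates with integrins, rose by 0.30 ± 0.081 at 1 year (SE). Syk, a kinase of immune and integrin receptors, fell by 0.75 ± 0.15 and 0.60 ± 0.15 (SE), and Rasgrp2, an activator of Rap1, by 0.46 ± 0.14 and 0.48 ± 0.15 (SE).

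In libraries labelled IL1R1 KO, 3 of the 40 rose at 1 year (Fyb, Cytip and Ptk2b; 2% of all genes passed), and 7 rose and 2 fell at 2 years (8.02% of all genes). Skap1 changed there by 0.54 ± 0.26 at 1 year (SE, limma adjusted p = 0.336) and rose by 1.47 ± 0.25 at 2 years (adjusted p = 2.14e-04), and against WT at 1 year it was lower by -1.0 ± 0.23 (SE, adjusted p = 0.0175). In germ-free libraries 2 of the 40 rose, against 2.1% of all genes: Skap1 by 1.35 ± 0.31 (SE, adjusted p = 0.0152) and Fyb by 0.83 ± 0.21 (adjusted p = 0.0295). Against WT at 2 years, Cytip (0.58 ± 0.10, SE) and the small GTPase Rap1b (0.56 ± 0.13) were higher in IL1R1 KO, and Tln1, the talin that binds beta chains, was lower (-0.35 ± 0.086). Germ-free libraries of 1 year had lower Pxn, the adaptor paxillin (-0.58 ± 0.17, SE), and lower Cd81, a tetraspanin (-0.37 ± 0.10), than WT. Rasgrp2, Rap1b, Tln1, Pxn and Cd81 were named after their values were seen.

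Of 28 genes of integrin ligands 23 were tested, with 4 up and 2 down at 1 year in WT (median 0.15; 10.7% of all genes passed) and 2 up and 1 down at 2 years (median 0.21; 5.55% of all genes). Jam2, a junction protein that binds alpha4beta1, rose from 660 ± 191 normalized counts (SD, n = 4) to 2315 ± 207 (SD, n = 5), by 1.85 ± 0.17 at 1 year (SE, limma adjusted p = 8.37e-09) and by 1.73 ± 0.18 at 2 years (adjusted p = 1.39e-07). Vwf, the platelet and endothelial ligand of alphaIIbbeta3 and 1 of the 15 megakaryocyte and platelet markers above, rose by 1.05 ± 0.15 and 1.01 ± 0.16 (SE), Lama4, a laminin chain, by 2.22 ± 0.61 at 1 year, and F11r, a ligand of LFA-1, by 0.39 ± 0.10. Col4a1, a collagen, fell by 0.86 ± 0.19 and Fn1, fibronectin, by 1.09 ± 0.34 at 1 year (SE), and Svep1, a ligand of alpha9beta1, fell by 4.29 ± 0.93 at 2 years (SE, adjusted p = 0.0042). In IL1R1 KO 2 ligands rose and 2 fell at 1 year (2% of all genes passed), 4 rose and 3 fell at 2 years (8.02%), and in germ-free libraries 2 rose (2.1%). Jam2 and Vwf were the 2 ligands that rose in both other kinds of mice: at 1 year by 1.04 ± 0.19 and 0.70 ± 0.17 in IL1R1 KO, and by 1.49 ± 0.23 and 1.36 ± 0.20 in germ-free (SE). Jam2 was lower than in WT at 1 year, by -0.76 ± 0.17 in IL1R1 KO (SE, adjusted p = 0.0162) and by -0.77 ± 0.21 in germ-free (adjusted p = 0.0331). Fn1 was named after its values were seen.

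**Figure D5:**
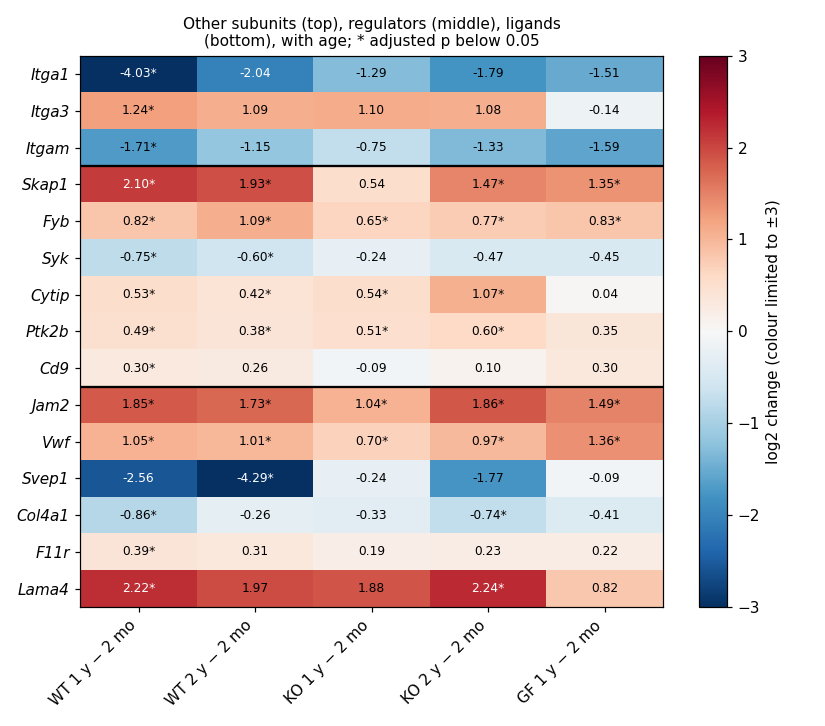
Log2 change with age of 15 further genes of the integrin system (3 other subunits, 6 regulators and 6 ligands) in 5 comparisons with 2 months, with colour limited to 3 either way and an asterisk where the limma adjusted p is below 0.05. Fyb, Jam2 and Vwf carry an asterisk in all 5 comparisons, and Itga1, Itga3 and Itgam in WT at 1 year only.

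The genes whose levels ran most like each integrin were taken by Pearson r over the 30 libraries on the log2 scale. These libraries share ages, depth and cell content, so r is a description. Itgb3 ran most like Sult1a1 (r = 0.927), Klhl4 (0.921) and Tgm2 (0.909). Clptm1 (0.891) and Kansl2 (0.873) were among the genes most like Itgb1, and Itga5 ran most like Mycn (0.86), Plppr3 (0.852) and Apoe (0.847). For Itga2b the nearest were Gp9 (0.839), Gp1bb (0.825) and Peg12 (0.812), and for Itga4 A430078G23Rik (0.83), Pot1b (0.8) and Pola1 (0.732). For Itgav they were Luc7l2 (0.786), Sfpq (0.749) and Pabpc1 (0.735), for Itga6 Med12l (0.767), Naaladl2 (0.76) and Itpr1 (0.749), and for Itgal Atg3 (0.767), 1110008P14Rik (0.764) and Gsr (0.759). The least alike were those of Itga9, namely Ablim1 (0.692), Pag1 (0.684) and Supt6 (0.677), and of Itgb2, namely Cdca5 (0.67), Btk (0.669) and Cenpe (0.663). Since the genes were chosen for their likeness over these libraries, their own changes are a description. For Sult1a1 the log2 difference from 2 months was 1.55 and 1.92 in WT and 1.2 and 1.64 in IL1R1 KO at 1 and 2 years. For A430078G23Rik it was -0.97 and -1.16 in IL1R1 KO and 0.080 and 0.11 in WT.

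Among the 10 integrins, Itga2b and Itgb3 had r = 0.642 over the 30 libraries, and 0.14 once each group's mean was removed. For Itga4 and Itgb1 the values were -0.425 and -0.168. The pair that forms the platelet receptor thus ran together between groups and little within them.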

How the data were processed

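The authors' table holds normalized counts per gene, a deposited signal that is not whole, for 30 mouse HSC libraries made by Smart-seq2 and sequenced from 1 end over 100 bases, per the labels' protocols. Strand is not marked. The submitters' processing notes name DESeq2 1.26.0, Salmon 1.2.0.0, cutadapt 2.10 and FastQC 0.11.9, and the build GRCm38. Low values lay on whole reads in 9.64% to 18.5% of cases (tolerance 0.001, below 20 reads), so reads were not recovered and no count model was used. Depth was estimated by taking the commonest value above 0 in a library as 1 read, and is approximate. Symbols matched 35422 of 35727 identifiers, and positions came from GENCODE M21 on GRCm38.

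Values entered as log2(normalized count + 1), which understates changes of low genes. A gene entered the tests when 3 or more libraries reached 10 normalized counts (16958 genes). limma 3.58.1 in R 4.3.3 fitted a mean per group over all 30 libraries, with trend and robust settings, two-sided tests and Benjamini-Hochberg adjustment over all tested genes in each of 15 comparisons. Figures were drawn with matplotlib 3.10.9 and tables joined with pandas 2.3.3 and numpy 2.4.6, under Python 3.11.15. The fit was first tested on simulated data. Per-length values used the union of exons.

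The integrins, the lists and the tests were chosen with earlier results of these data known. Named genes were all 10 integrins, up to 6 called genes per integrin list with the smallest p in the WT age comparisons, and the 3 protein-coding genes most like each integrin, of which 1 is not reported here. No pair of libraries was identical. Alternatives were other pseudocounts, filters, scaling, samples, weights, a replicate block, the other placement of 1 library, a granule covariate, leaving out 9 libraries of high Mpo, and leaving out each library.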

Additional observations from a re-analysis of the deposited data

Results flagged for a closer look

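Within groups of 4 or 5 libraries, 4 of 50 sets of an integrin and a group had a library far from the others, where chance gives about 1 in 20. Itga9 was 577 normalized counts in WT 2 years replicate 3, with the nearest other library at 45.4. In the same library Itga6 was 4372, with the nearest at 3303. Itga4 was 1983 in IL1R1 KO 1 year replicate 3, with the nearest at 2634, and Itgav was 725 in WT 1 year replicate 1, with the nearest at 438.

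The change of Itga4 from 2 months to 2 years differed between libraries labelled IL1R1 KO and WT by -0.96 on the log2 scale in limma's test of the difference. All 5 libraries of IL1R1 KO at 2 years lay below all 3 of 2 months, and the WT libraries of these ages overlapped. In that IL1R1 KO comparison 16.3% of all tested genes had groups without overlap, and 9.13% in that of WT.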

How the results depend on the processing

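Over 270 values of single integrin changes under alternatives, 220 kept their direction and call, 50 kept the direction without the call and 0 reversed. The rise of Itgb3 passed in 19 of 19 alternatives in WT at 1 year (1.54 to 1.79), 18 of 18 at 2 years, 18 of 18 in IL1R1 KO at 2 years, 16 of 17 at 1 year and 13 of 15 in germ-free libraries (adjusted p up to 0.127), and its difference between germ-free and WT at 2 months in 12 of 17 (adjusted p up to 0.352). Counts of integrins called moved by over 1.5 times in 45 of 290 cases. Smaller moves are not among these: in IL1R1 KO at 2 years the count of 3 became 2 without the filter, with only the groups compared, with the replicate block, with 1 library placed at 2 months and without high Mpo. Without the filter, germ-free against WT at 1 year went from 2 to 1. With quantile scaling it went from 2 to 1 and WT at 2 years from 1 to 2. With only the groups compared, WT at 1 year went from 1 to 3, IL1R1 KO at 1 year from 2 to 1, its step to 2 years from 0 to 1, germ-free ageing from 2 to 0, IL1R1 KO against WT at 1 year from 1 to 2 and germ-free against WT at 2 months from 1 to 0. With array weights the last 4 of these became 1, 1, 2 and 0, and germ-free against WT at 1 year 1. With 1 library placed at 2 months, IL1R1 KO at 1 year, germ-free against WT at 2 months and the difference of 2-year changes became 0. With the granule covariate, WT at 2 years became 2 and IL1R1 KO at 1 year 1. Without high Mpo, IL1R1 KO at 1 year and germ-free ageing became 1, and germ-free against WT at 2 months and the difference of 2-year changes 0. The cause was not tested.

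With a replicate block, the count for germ-free ageing and for germ-free against WT at 1 year went from 2 to 1. Deviations of same-numbered libraries from their group means had correlations of -0.11 to 0.157. In groups of 2 to 5 libraries such values cannot decide whether the numbers pair libraries, since deviations from a group mean are tied to each other. The calls lost with the block are given as they stand.

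Leaving out 1 library gave 0 to 2 called in germ-free ageing and in germ-free against WT at 1 year, 0 to 1 in germ-free against WT at 2 months, in the IL1R1 KO step from 1 to 2 years and in the difference of 2-year changes, 1 to 2 in IL1R1 KO and in WT at 1 year, 2 to 3 in IL1R1 KO at 2 years and 1 to 3 in WT at 2 years. Over all genes, the 1818 called in WT at 1 year became 765 with the granule covariate, the 941 at 2 years 350 with only the groups compared, and with that same choice the 340 in IL1R1 KO at 1 year became 47, the 356 of germ-free ageing 15, the 69 of IL1R1 KO against WT at 2 months 19 and the 102 of germ-free against WT at 2 months 38. Without high Mpo the 1360 in IL1R1 KO at 2 years became 501, the 6 and 0 of the differences of 1-year changes 35 (IL1R1 KO) and 121 (germ-free), and the 102 became 202. Array weights raised the step from 1 to 2 years from 2 to 9 in WT and from 30 to 83 in IL1R1 KO, and IL1R1 KO against WT from 221 to 474 at 1 year and from 241 to 535 at 2 years. The 841 of germ-free against WT at 1 year became 150 without germ-free 1 year replicate 1 and 418 with the replicate block, and the 67 of the difference of 2-year changes became 0 with 1 library placed at 2 months. Groups of 2 to 5 libraries limit all tests.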

Other observations

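Itga9 was measured with 2 of its known ligands. Svep1 stood at 140 ± 39.9 normalized counts in young WT libraries (SD, n = 4), at 28.4 ± 18.2 in those of 1 year (SD, n = 5) and at 10.9 ± 10.2 in those of 2 years (SD, n = 4). Tnc, tenascin-C, was 105 ± 95.1 in libraries labelled IL1R1 KO at 2 months (SD, n = 3, from 8.77 to 199) and was listed at 0 in all of their 1-year and 2-year libraries and in all germ-free libraries. In WT it lay between 0 and 28.9. Vcam1, the ligand of alpha4beta1 on stromal cells, ranged from 2.95 to 694 over the 30 libraries and passed in no comparison.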
